A study of Mus musculus with 8 samples.

Results

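The mitochondrial ribosomal protein genes are the nuclear genes named Mrpl for the large subunit and Mrps for the small subunit of the ribosome inside mitochondria. They were taken from the deposited count table as the symbols made of Mrpl or Mrps, a number and at most 1 further letter, with a sum of at least 100 counts over the 8 libraries. The pattern matched 77 of the 33435 named genes and 76 reached the minimum, 47 of the large subunit and 29 of the small subunit. Membership rests on the symbol alone, so a member's product need not be part of that ribosome. Mrpl53 was left out with 14 counts, and the member with the fewest, Mrpl50, had 1166. All 76 were among the 11040 genes abundant enough to be tested.

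RNA was sequenced from mouse myeloid progenitors, sorted after hematopoietic stem and progenitor cells of E14.5 C57BL/6J fetal livers had been infected with a virus. The Trim27 group (4 libraries) received a virus carrying Trim27, which encodes an E3 ubiquitin ligase of the TRIM family, and the GFP group (4 libraries) received the GFP control virus, which the design text calls an empty vector. Strain, age, infection and sort were common to both groups, so neither group is uninfected, and the labels do not give the promoter of the virus or the gate of the sort. Separate infections, cultures or animals are not named for the 4 libraries of a group, so the p-values rest on differences among libraries that may be technical only.

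The mitochondrial ribosome translates the few messenger RNAs of the mitochondrial genome, which encode core subunits of the respiratory chain and of ATP synthase. Its ribosomal RNAs come from the mitochondrial genome, whereas every protein is encoded in the nucleus, made in the cytosol and imported. Compared with its bacterial relatives it carries less RNA and many proteins that bacteria lack. In fetal liver progenitors, as in other dividing cells that build mitochondria, these genes are broadly expressed housekeeping genes, and their promoters are known for sites of NRF1, of ETS family factors such as GABP, and of YY1.

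Short promoter stretches are shown because members of this family share such sites although their measured changes differed in direction and size. Promoter windows from RefSeq (GRCm38.p6, 250 bases before to 50 after a gene's start) were found for 67 of the 76 members. For each motif, the member with the largest rise and the one with the largest fall among those with a match wholly before the start are given, 5′ to 3′ on the gene's strand, with the match in capitals; no rising member had such a YY1 match.
Mrpl9, NRF1, chr3:94443290-94443335, plus strand: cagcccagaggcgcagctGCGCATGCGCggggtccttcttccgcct
Mrps21, NRF1, chr3:95871578-95871623, minus strand: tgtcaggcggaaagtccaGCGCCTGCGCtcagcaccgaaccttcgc
Mrpl3, ETS, chr9:105053231-105053267, plus strand: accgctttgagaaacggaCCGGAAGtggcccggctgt
Mrpl22, ETS, chr11:58171593-58171635, plus strand: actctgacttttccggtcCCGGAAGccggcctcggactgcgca
Mrpl36, YY1, chr13:73330960-73331004, plus strand: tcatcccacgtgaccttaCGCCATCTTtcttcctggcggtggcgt

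The letters searched on both strands were GCGCA, any base and GCGC for NRF1, CCGGAAG for ETS factors and AAGATGGCG for YY1, and a match to the ETS letters may share bases with one to the YY1 letters. NRF1 letters were in 13 of 67 members (19.4%) against 5.19% of the 27025 genes with a window. These 27025 genes were not limited to those expressed enough to be tested, whereas all members were. ETS letters were in 24 members (35.8%) against 9.93% of all genes, and YY1 letters in 8 members (11.9%) against 1.64%. At least 1 of the 3 was found in 31 of 52 members that fell, 5 of 8 that rose and 3 of 7 that did not pass the test described next, so matches were present whichever way a member moved. A match describes these letters only and does not show binding.

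The 100 bases before the start of the 2 members that rose most and the 2 that fell most are given for comparison. None of these stretches holds a match to the letters above, but Mrps18b has an ETS match after its start, within the window counted.
Mrpl50, rose, chr4:49521084-49521183, minus strand: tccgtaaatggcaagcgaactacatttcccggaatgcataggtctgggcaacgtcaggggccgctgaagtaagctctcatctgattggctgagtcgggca
Mrps18b, rose, chr17:35916441-35916540, minus strand: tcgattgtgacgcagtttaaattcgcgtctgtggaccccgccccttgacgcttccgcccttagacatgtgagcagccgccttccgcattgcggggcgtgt
Mrpl1, fell, chr5:96210015-96210114, plus strand: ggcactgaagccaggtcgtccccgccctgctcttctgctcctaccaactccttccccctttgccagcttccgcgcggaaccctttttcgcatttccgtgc
Mrps31, fell, chr8:22411240-22411339, plus strand: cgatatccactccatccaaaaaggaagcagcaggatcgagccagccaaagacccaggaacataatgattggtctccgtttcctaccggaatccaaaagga

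Total counts were 10551137 to 16366571 in the Trim27 libraries and 9257889 to 10747794 in the GFP libraries. Genes with any count numbered 12962 to 13283 in the Trim27 libraries and 11131 to 11850 in the GFP libraries. Trim27 itself was at 268, 311, 292 and 301 CPM (counts scaled to a common library size by TMM) in the Trim27 libraries and 191, 184, 177 and 171 CPM in the GFP libraries, with no overlap. Over all genes with a count in either library of a pair, the groups stood far apart. The chi-square per degree of freedom was 94.5 to 120.0 between libraries of different groups and 2.49 to 9.27 between libraries of 1 group. Across the 76 members, which are not independent replicates, the correlation of log2 CPM was 0.852 to 0.884 between groups and 0.991 to 0.998 within groups. The summed markers of granulocyte and monocyte progenitors (8 of 8 genes tested, among them Mpo, Elane and Prtn3) were at 1057 to 1207 CPM in the Trim27 libraries and 1556 to 1660 CPM in the GFP libraries. Of these 8, 7 fell, against 38% of all tested genes, but 3 rose and 4 fell with the transcript-length trend described below removed. Sums of other lineages' markers often rested on single genes. The sum of 10 erythroid markers was 3467 to 3962 CPM in the Trim27 libraries and 5429 to 5605 CPM in the GFP libraries, with most from Hbb-bs (on average 1880 CPM in the Trim27 group and 3040 CPM in the GFP group). Of the 10, 7 fell while Gata1 (log2 fold change 0.91), Alas2 (2.06) and Slc4a1 (2.98) rose, and the median of -0.40 turned to 0.48, with 7 higher, when that trend was removed. Megakaryocyte markers (5 genes) summed to 787 to 821 CPM in the Trim27 libraries and 1019 to 1101 CPM in the GFP libraries, and B cell markers (5 genes) to 18.6 to 26.4 CPM in the Trim27 libraries and 38.7 to 84.4 CPM in the GFP libraries. Sums of mast cell, basophil and eosinophil markers overlapped, at 80.9 to 95.0 CPM in the Trim27 libraries and 81.5 to 88.0 CPM in the GFP libraries, but all 4 tested genes were called: Ms4a2 (5.85) and Cpa3 (1.32) rose, and Epx (-1.91) and Prg2 (-0.42) fell. The 4 T and NK cell markers summed to 1.99 to 3.06 CPM in the Trim27 libraries and 27.7 to 30.3 CPM in the GFP libraries, nearly all from Lck (on average 2.16 CPM in the Trim27 group and 28.9 CPM in the GFP group), with Ncr1 at 0 in every library and Cd3e and Cd3g each averaging under 0.2 CPM in both groups. The 4 macrophage markers summed to 9.69 to 11.9 CPM in the Trim27 libraries, all from Emr1, and 0 to 0.957 CPM in the GFP libraries, where Emr1 was at 0; C1qa and Mrc1 were at 0 in every library. The 5 hepatocyte markers summed to 14.3 to 16.4 CPM in the Trim27 libraries and 1.2 to 1.7 CPM in the GFP libraries, from Afp and Apoa1, with Alb, Ttr and Hnf4a at 0 in every library. Of 4 endothelial and stromal markers, Cdh5, Kdr and Col3a1 were at 0. The part of these markers in the results below was not tested.

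Most mitochondrial ribosomal protein genes had lower relative levels in the Trim27 group than in the GFP group under TMM scaling, whereas 32 were lower and 31 higher when the length trend of all genes was removed. Removing a length trend means that the smooth dependence of fold change on transcript length was taken out before the test. It was estimated over all tested genes or over those of at least 6 log2 CPM (called abundant genes). With the trend of all genes removed, 33.7% of all tested genes were lower and 50.4% higher. Their median log2 fold change was then 0.26, against -0.0067 over the members. With the trend of abundant genes removed, 56 members were lower and 8 higher, against 37.6% and 45.9% of all tested genes. Under TMM scaling, at a Benjamini-Hochberg adjusted p of 0.05 over all tested genes by the quasi-likelihood test of edgeR, 59 of the 76 members fell, 8 rose and 9 did not pass. Calls were common in this comparison at large, with 85.5% of all tested genes called, 38% lower and 47.5% higher, against 77.6% of the members lower and 10.5% higher. The median log2 fold change of the members was -0.57 (quartiles -0.83 and -0.13) and that of all tested genes 0.14. The 4 libraries of each group did not overlap for 58 members that were lower and 7 that were higher, against backgrounds of 35.4% and 45.3% of all genes. Changes of at least 2-fold were found for 14 members that fell, which is 18.4% against a background of 16%, and for 2 that rose, against 31.3%. These are bulk libraries, so fewer cells of a type and less RNA per cell cannot be told apart.

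**Figure D1:**
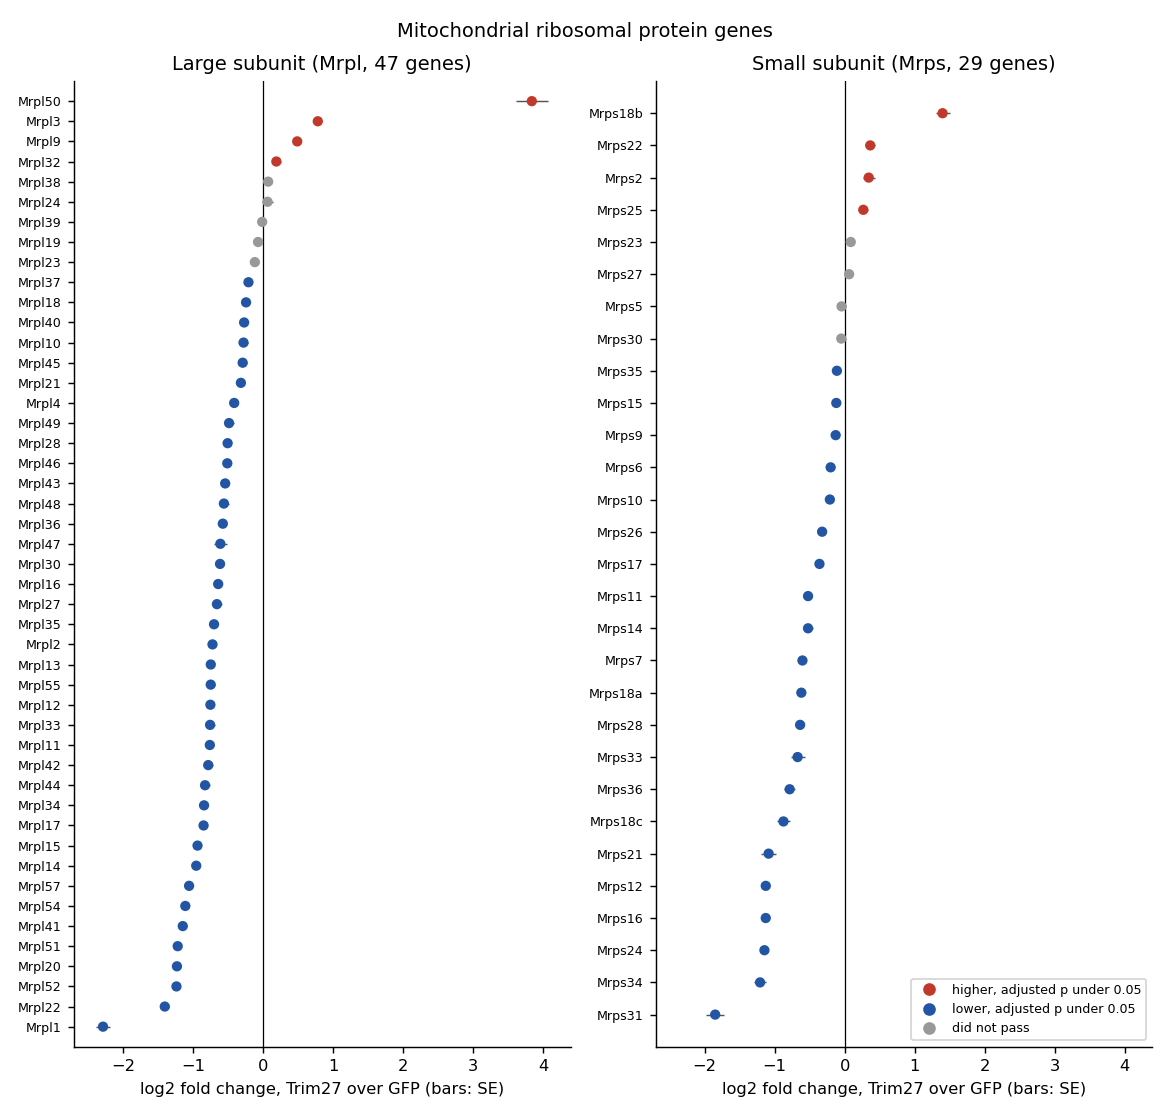
Log2 fold change of Trim27 over GFP for each of the 47 large subunit and 29 small subunit genes (points, with the standard error as a bar; 4 libraries per group), under TMM scaling, coloured by the call of edgeR's quasi-likelihood test. The points run from -2.28 for Mrpl1 to 3.84 for Mrpl50, with 38 large and 21 small subunit genes called lower. With the length trend of all genes removed, 20 large and 12 small subunit genes were called lower, against 33.7% of all tested genes. With that of abundant genes removed, 56 of the 76 members were called lower, against 37.6%.

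Both subunits were mostly lower under TMM scaling, but with the length trend of all genes removed 20 of the large subunit were lower and 18 higher, and 12 of the small were lower and 13 higher. That fit had 33.7% of all tested genes lower and 50.4% higher. In the large subunit 38 of 47 genes fell (80.9%), 4 rose and 5 did not pass, with a median log2 fold change of -0.61. In the small subunit 21 of 29 fell (72.4%), 4 rose and 4 did not pass, with a median of -0.36, which turned to 0.12 with that trend removed. In mammalian ribosome structures the products of Mrps30 and Mrps18a belong to the large subunit; moving both there gave 39 of 49 falls in the large subunit and 20 of 27 in the small, with medians of -0.61 and -0.36. With members assigned by symbol and the trend of abundant genes removed, the medians were -0.36 in the large subunit and -0.25 in the small. No test was made between the subunits, since genes are not replicates.

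The summed counts show the same order. Large subunit genes took 0.966, 0.963, 0.97 and 0.946% of the counts in Trim27 replicates 1 to 4 and 1.25, 1.25, 1.27 and 1.27% in GFP replicates 1 to 4. Small subunit genes took 0.41, 0.409, 0.407 and 0.404% in the Trim27 libraries and 0.449, 0.454, 0.457 and 0.456% in the GFP libraries. Every Trim27 library lay below every GFP library in both sums. The ratio of small to large subunit counts was 0.424 ± 0.00324 in the Trim27 group and 0.36 ± 0.00217 in the GFP group (SD, n = 4 each), again with no overlap. These sums are shares of all counts as deposited, with no scaling, and a few abundant genes weigh most in them.

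**Figure D2:**
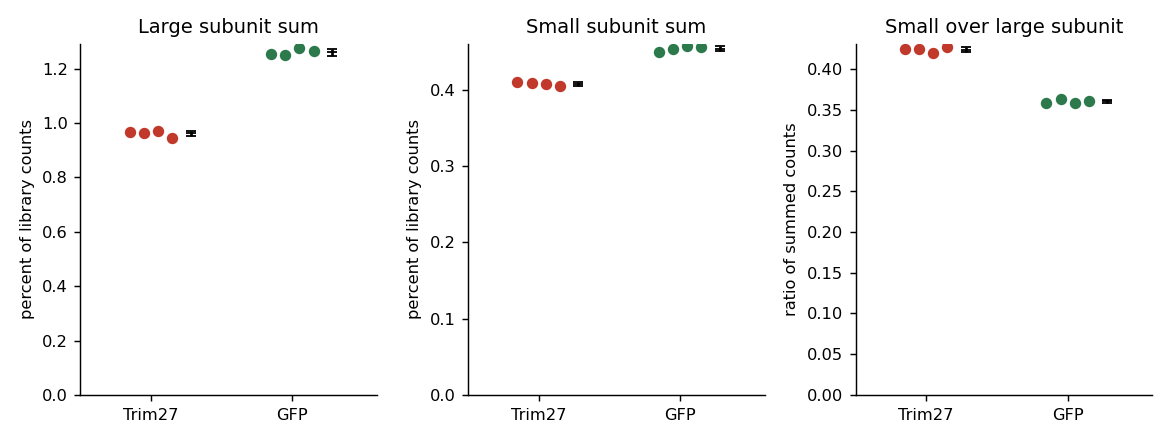
Summed counts of large subunit genes and of small subunit genes as a percent of each library's counts, and the ratio of small to large (points: libraries; bar: mean and SD, n = 4 per group). The ratio was 0.424 in the Trim27 group and 0.36 in the GFP group.

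Genes with a counterpart in bacterial ribosomes and members without one were described apart. Of 45 members with a bacterial counterpart, 37 fell and 4 rose (median log2 fold change -0.61, but 0.10 with the length trend of all genes removed). Of the 31 without one, 22 fell and 4 rose (median -0.51, and -0.03 with that trend removed). The 14 small subunit genes without a bacterial counterpart had 8 falls, 3 rises and a median of -0.22, which turned to 0.09 under library size alone and to 0.14 with that trend removed. Levels per length, in CPM per kilobase of transcript, had a median of 103 in the Trim27 group and 150 in the GFP group over large subunit genes. Over small subunit genes the same medians were 73.5 in the Trim27 group and 91.6 in the GFP group. Although most of these proteins are thought to be present once in each ribosome, levels per kilobase ran from 4.55 (Mrpl1) to 1157 (Mrpl20) in the Trim27 group and from 0.575 (Mrpl50) to 2713 (Mrpl20) in the GFP group.

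The largest rise was that of Mrpl50, a protein of the large subunit without a bacterial counterpart. Mrpl50 was at 20.6, 16.3, 19.4 and 13.3 CPM in Trim27 replicates 1 to 4, against 1.83, 0.638, 0.957 and 1.44 CPM in GFP replicates 1 to 4. The groups were far apart, and the fitted log2 fold change was 3.84 (SE 0.23, adjusted p = 2.7e-15), a 14.3-fold rise. The GFP libraries held only 16, 6, 8 and 14 counts of it, and among all tested genes under 4 log2 CPM, the range in which Mrpl50 lies, the SD of the log2 fold changes was 3.85.

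Mrps18b was the small subunit gene that rose most. It had 41.6, 47.6, 49.04 and 46.0 CPM in the Trim27 libraries, against 17.2, 16.6, 15.2 and 20.8 CPM in the GFP libraries, a log2 fold change of 1.40 (SE 0.10). Mrps18a, Mrps18b and Mrps18c are paralogs related to bacterial protein S18 that take different places, of which only the product of Mrps18c sits where S18 does. The other two fell. Mrps18a averaged 144 ± 5.57 CPM in the Trim27 group and 221 ± 9.77 CPM in the GFP group (log2 fold change -0.62, but 0.32 with the length trend of all genes removed). Mrps18c averaged 22.7 ± 1.08 CPM in the Trim27 group and 41.6 ± 1.93 CPM in the GFP group (log2 fold change -0.88, but 0.19 with that trend removed; SD, n = 4 each). Mrps18b shares 638 exonic bases with the predicted gene Gm16279 on the opposite strand, which had 62 counts in all.

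Mrpl3, a protein close to the peptidyl transferase centre, was at 231, 227, 219 and 209 CPM in the Trim27 libraries and at 121, 131, 137 and 126 CPM in the GFP libraries. It rose by a log2 fold change of 0.78 (SE 0.05, adjusted p = 5.1e-14), with no overlap. Mrpl9, which has a bacterial counterpart in L9, rose less, with 168, 170.1, 161 and 174 CPM in the Trim27 libraries against 120.4, 127, 115 and 117 CPM in the GFP libraries (0.49, SE 0.05). Mrps22, a small subunit protein without a bacterial counterpart, averaged 80.6 ± 5.49 CPM in the Trim27 group and 62.5 ± 6.44 CPM in the GFP group (0.36, adjusted p = 4.7e-05). Mrps2, the counterpart of bacterial S2, averaged 46.8 ± 3.37 CPM in the Trim27 group and 36.9 ± 3.76 CPM in the GFP group (0.34, adjusted p = 0.00059), and 1 GFP library (42.35 CPM) lay just above the lowest Trim27 library (42.1 CPM). The call of Mrps2 was lost when the trend fitted over genes of at least 6 log2 CPM was removed (0.16, adjusted p = 0.076).

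The remaining rises were those of Mrps25 and Mrpl32. Mrps25 was at 58.2 to 64.2 CPM in the Trim27 libraries and 48.9 to 52.01 CPM in the GFP libraries (log2 fold change 0.26), a direction that turned to -0.25 with the length trend of all genes removed; when only genes of at least 6 log2 CPM set the trend, the value was 0.03 and not called. Mrpl32, whose precursor is matured by a protease of the mitochondrial inner membrane, was at 139, 110, 114 and 125 CPM in the Trim27 libraries and 100.1, 112, 107 and 108 CPM in the GFP libraries, with overlap (log2 fold change 0.19, adjusted p = 0.01). Without Trim27 replicate 1, its highest library, the value was 0.09 (adjusted p = 0.152), without Trim27 replicate 4 it was 0.15 (adjusted p = 0.0715), and with the length trends of abundant and of all genes removed it was -0.01 and -0.09, neither called.

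Mrpl1 fell most. It encodes the protein of the L1 stalk, the mobile arm next to the exit site for transfer RNA. Mrpl1 was at 19.01, 13.6, 14.03 and 15.8 CPM in Trim27 replicates 1 to 4, against 73.7, 75.8, 73.7 and 80.7 CPM in GFP replicates 1 to 4. That is a log2 fold change of -2.28 (SE 0.09, adjusted p = 3.6e-19) with no overlap. Mrps31, a small subunit protein without a bacterial counterpart, had 12.9, 9.87, 8.28 and 9.17 CPM in the Trim27 libraries against 38.5, 38.8, 30.6 and 37.2 CPM in the GFP libraries (-1.85, SE 0.13). Both genes are of moderate abundance, where large changes were common: from 4 to 6 log2 CPM the SD of the log2 fold changes over all tested genes was 1.6.

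Mrpl22 encodes a protein that lines the exit tunnel for the growing chain. It was at 50.1, 54.5, 59.9 and 53.6 CPM in the Trim27 libraries and 144, 146, 142 and 145 CPM in the GFP libraries (log2 fold change -1.40, SE 0.06). Mrpl52 and Mrpl51 have no bacterial counterpart. Mrpl52 averaged 186 ± 12.7 CPM in the Trim27 group and 439 ± 13.8 CPM in the GFP group (-1.24, but 0.01 once the length trend of all genes was removed, adjusted p = 0.83). Mrpl51 averaged 204 ± 13 CPM in the Trim27 group and 475 ± 17.9 CPM in the GFP group (-1.22), and it fell under that setting as well (-1.56). With the trend of abundant genes removed, Mrpl52 was at -0.52 and Mrpl51 at -1.41.

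**Figure D3:**
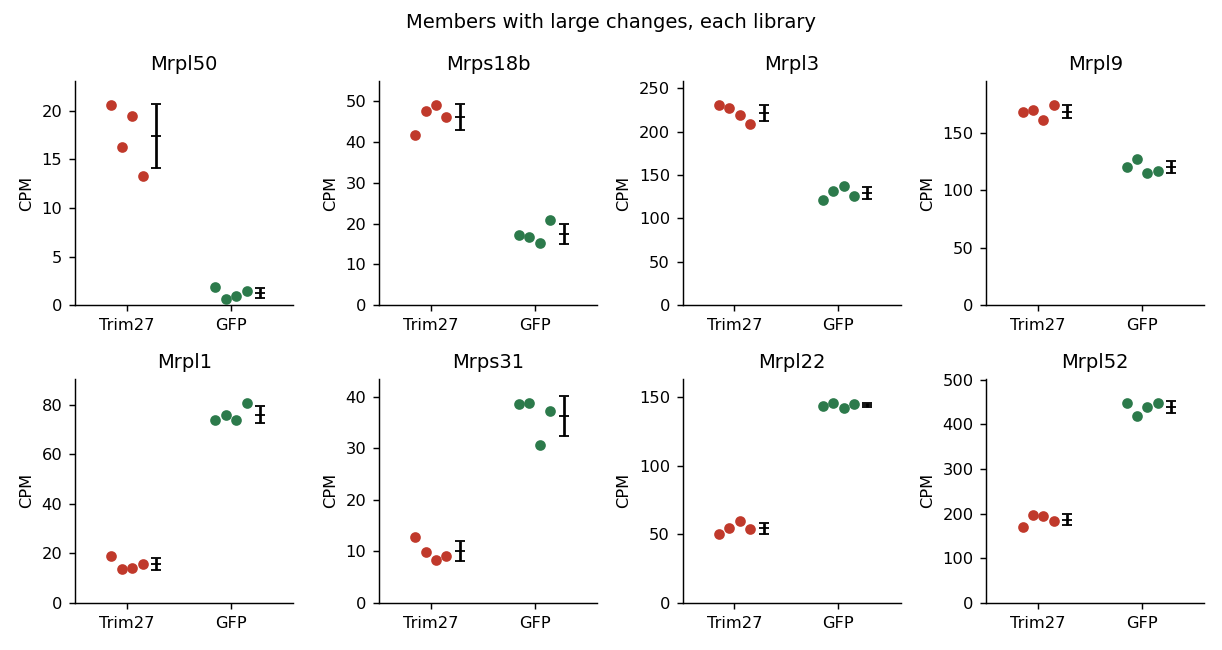
CPM in each library for 4 members that rose (Mrpl50, Mrps18b, Mrpl3, Mrpl9) and 4 that fell (Mrpl1, Mrps31, Mrpl22, Mrpl52); points are libraries and bars the mean and SD (n = 4 per group). The groups do not overlap in any of the 8 genes under TMM scaling, and Mrpl50 stays below 2 CPM in every GFP library; the fall of Mrpl52 was lost, at a log2 fold change of 0.01, when the length trend of all genes was removed.

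The most abundant large subunit genes fell under TMM scaling. Mrpl20, the counterpart of a bacterial protein that binds ribosomal RNA early in assembly, had 627, 557, 557.5 and 545 CPM in the Trim27 libraries against 1306, 1353, 1358 and 1345 CPM in the GFP libraries (log2 fold change -1.23, SE 0.05, but -0.02 once the length trend of all genes was removed, adjusted p = 0.66). Mrpl17 averaged 625 ± 28 CPM in the Trim27 group and 1125 ± 29.8 CPM in the GFP group (-0.85). Mrpl28 averaged 613 ± 36 CPM in the Trim27 group and 869.6 ± 30.2 CPM in the GFP group (-0.51, but 0.12 with that length trend removed). With the trend of abundant genes removed, Mrpl20 was at -0.58 and Mrpl28 at -0.31. The most abundant small subunit genes fell as well under TMM scaling. Mrps7 averaged 391 ± 25.2 CPM in the Trim27 group and 594 ± 7.11 CPM in the GFP group (-0.60). Mrps16 averaged 189 ± 12 CPM in the Trim27 group and 414 ± 14.6 CPM in the GFP group (-1.13). Mrps26 averaged 261 ± 17 CPM in the Trim27 group and 327 ± 20.2 CPM in the GFP group (-0.32, but -0.02 with adjusted p = 0.71 under scaling by library size alone; SD, n = 4 each).

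Genes whose products form known functional sites were followed apart. Mrpl12, the stalk protein that recruits translation factors and that in human cells also binds the mitochondrial RNA polymerase, was at 497, 552, 547 and 482 CPM in the Trim27 libraries and 883, 874.5, 876 and 864 CPM in the GFP libraries (log2 fold change -0.75, SE 0.05). Its partners in and under the stalk are the products of Mrpl10 and Mrpl11. Mrpl11 averaged 99.01 ± 3.05 CPM in the Trim27 group and 168 ± 11.1 CPM in the GFP group (-0.76). Mrpl10 averaged 60.2 ± 2.3 CPM in the Trim27 group and 73.01 ± 3.73 CPM in the GFP group (-0.28, adjusted p = 0.00033), a direction that turned to 0.16 with the length trend of all genes removed and to 0.03 with library size alone. Mrps12, a protein of the decoding centre, was at 179, 195, 191 and 188 CPM in the Trim27 libraries and 424.5, 399, 419 and 404 CPM in the GFP libraries, with no overlap (-1.13, SE 0.05, and -0.24 with the length trend of all genes removed). Mrpl45, which ties the exit tunnel to the inner membrane, averaged 98.5 ± 3.68 CPM in the Trim27 group and 120.5 ± 3.95 CPM in the GFP group (-0.29), a direction that turned to 0.01 under library size alone. With the trend of abundant genes removed, Mrpl10 was at -0.18, Mrps12 at -0.77 and Mrpl45 at -0.49.

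The 9 members that did not pass were Mrpl19, Mrpl23, Mrpl24, Mrpl38, Mrpl39, Mrps5, Mrps23, Mrps27 and Mrps30. Their log2 fold changes under TMM scaling were small, at -0.12 for Mrpl23, -0.07 for Mrpl19, -0.05 for Mrps5 and Mrps30, -0.01 for Mrpl39, 0.06 for Mrps27, 0.07 for Mrpl24 and Mrpl38 and 0.09 for Mrps23. Mrps30, for example, had 99.8, 85.4, 86.04 and 96.3 CPM in the Trim27 libraries and 89.2, 104, 91.2 and 95.7 CPM in the GFP libraries, with the groups mixed (-0.05, SE 0.07, adjusted p = 0.48). Mrps23 had 210.2, 198, 196 and 199.6 CPM in the Trim27 libraries, all above the 188 to 190.4 CPM of the GFP libraries, but a difference of this size did not pass (adjusted p = 0.10). Mrpl19 and Mrpl23 were called lower without Trim27 replicate 1 (-0.11 and -0.14, adjusted p = 0.033 and 0.043), and Mrpl23 also without Trim27 replicate 2 (-0.17, adjusted p = 0.031). All 9 were called higher under scaling by library size alone, with 0.23 for Mrpl19 and 0.19 for Mrpl23. With the length trend of all genes removed 4 were called higher, among them Mrpl23 (0.89) and Mrpl24 (0.50), and 4 lower, among them Mrpl19 (-0.55), Mrps5 (-0.49) and Mrps30 (-0.37).

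The other members all fell under TMM scaling. In the large subunit these were 27 genes, with log2 fold changes from -1.15 (Mrpl41) to -0.21 (Mrpl37). In the small subunit they were 14 genes, from -1.21 (Mrps34) to -0.11 (Mrps35). With the length trend of all genes removed, 15 of these 41 genes were called lower, 18 higher and 8 neither; Mrpl34 was then at 0.25 instead of -0.84, Mrps36 at 0.28 instead of -0.79, Mrpl33 at 0.46 instead of -0.76 and Mrpl30 at 0.43 instead of -0.61. Scaling by library size alone gave 31 lower, 3 higher and 7 neither, and removal of the abundant genes' length trend 34 lower, 1 higher and 6 neither. Over all tested genes, 28.1% were lower in the first of these fits and 37.6% in the second. The smallest falls did not hold under every choice of libraries: Mrps35 was not called without GFP replicate 1, 2 or 4, Mrps15 without GFP replicate 2 or 4 and Mrps9 without GFP replicate 3, with adjusted p between 0.0526 and 0.0914 and log2 fold changes between -0.12 and -0.10. With the trend of genes of at least 6 log2 CPM removed, Mrps15 was called higher (0.14, adjusted p = 0.0075).

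Transcript length stood beside these values. Members are short, with a median transcript length of 1224.5 bases (1230 in the large subunit, 1063.5 in the small) against 2428 over all tested genes, and abundant, with a median of 7.29 log2 CPM against 4.29. In this comparison log2 fold changes followed length across all genes, and genes are not independent replicates: over the 10992 with a length, Pearson's r was 0.18 and Spearman's rho 0.25. Over the 76 members r was 0.24 and rho 0.37. The relation with the mean log2 CPM in the GFP group was stronger, with r of -0.67 and rho of -0.57 over all genes and r of -0.54 and rho of -0.34 over members, but the GFP values enter both measures. Points share the same libraries, and none of these values is given as a test.

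Genes of at least 6 log2 CPM that are no members were set beside the 59 members of that abundance. Under 500 bases the 2 members had a median log2 fold change of -1.23, against -1.03 over those genes. From 500 to 750 bases the 7 members had -0.84, against -0.78, and from 750 to 1000 bases the 11 members had -0.64, against -0.56. From 1000 to 1500 bases the 18 members had -0.35, against -0.31. Differences between these medians were wider above that length: from 1500 to 2000 bases the 7 members had -0.52, against -0.08, and at 2000 bases or more the 14 members had -0.20, against -0.01. Without the limit on abundance the gaps were larger. All 76 members had medians of -1.16, -0.79, -0.65, -0.28, -0.56 and -0.11 from the shortest to the longest of these bins, against -0.82, -0.61, -0.45, -0.10, 0.19 and 0.47 over all tested genes. What part length has in the members' values was not tested beyond these medians and the fits with the trend removed.

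**Figure D4:**
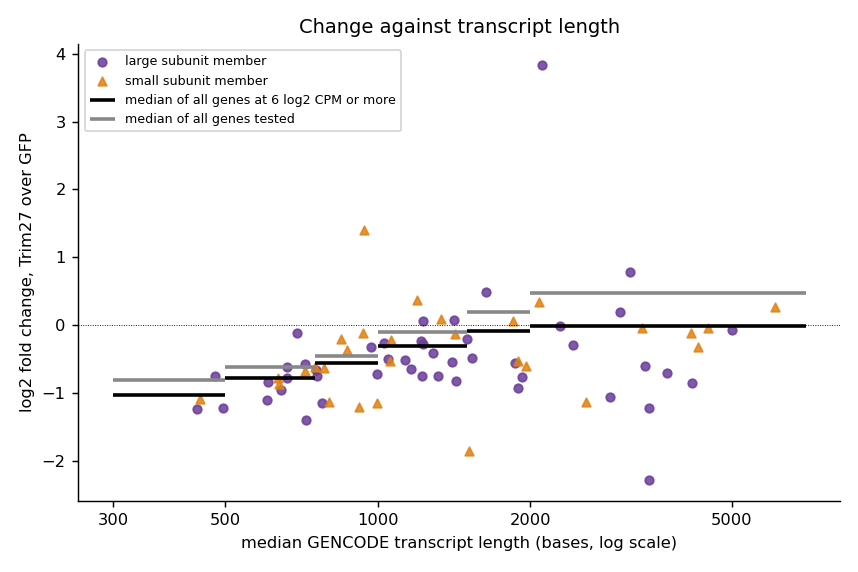
Log2 fold change of Trim27 over GFP under TMM scaling against transcript length (log axis) for the members of each subunit. Lines give the medians over all tested genes and over those of at least 6 log2 CPM in each length bin. The medians over genes of at least 6 log2 CPM run from -1.03 under 500 bases to -0.01 at 2000 bases or more. From 1500 to 2000 bases the 7 members of that abundance have a median of -0.52, against -0.08 over other genes of that abundance. All 9 members of that length have -0.56, against 0.19 over all tested genes.

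The family's counts moved with scaling more than with any library. Scaling by library size alone gave 20 members higher and 46 lower, and it moved the median of all tested genes to 0.44. Of all tested genes, 56.9% were then higher and 28.1% lower. The members' median was 0.70 below that of all genes, as under TMM. Such a factor shifts all genes nearly alike, so this gap could hardly change between these scalings. Of all calls, 66.9% were then higher, against 55.6% under TMM. Removing the length trend fitted over all genes gave 31 members higher and 32 lower, with medians of -0.03 in the large subunit and 0.12 in the small. In that fit 50.4% of all tested genes were higher and 33.7% lower, and the members' median minus that of all genes was -0.27. Removing the trend fitted over genes of at least 6 log2 CPM gave 8 higher and 56 lower, with medians of -0.36 and -0.25. Of all tested genes, 45.9% were higher and 37.6% lower in that fit. The members' median minus that of all genes was then -0.44. Leaving out any 1 library gave 57 to 61 members lower and 7 or 8 higher. In those fits 36.7 to 38.8% of all tested genes were lower and 45.8 to 47.7% higher.

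**Figure D5:**
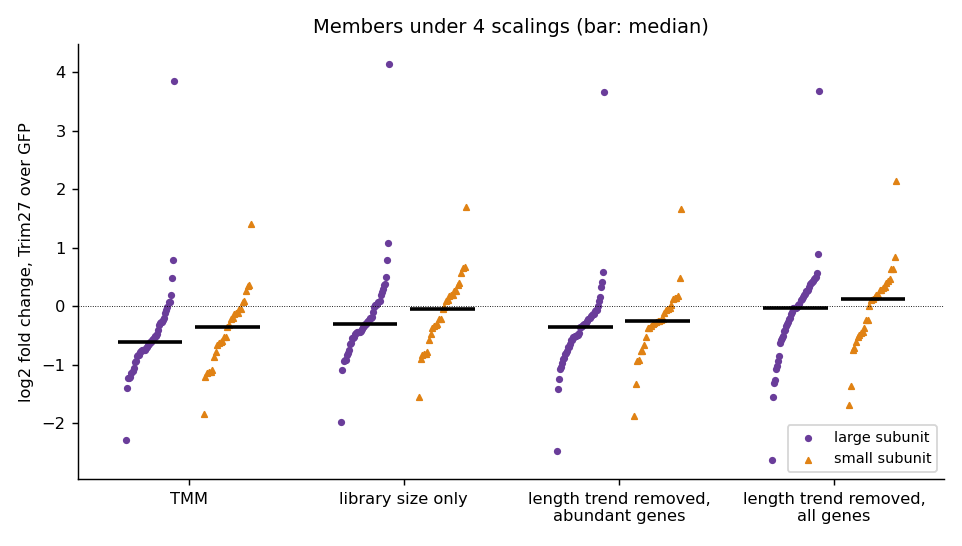
Log2 fold change of Trim27 over GFP for each member (points, by subunit), with the median of each subunit as a bar. The scalings are TMM, library size only, and removal of the length trend of abundant genes or of all genes. Medians of the large and small subunit were -0.61 and -0.36 under TMM, and -0.03 and 0.12 with the length trend of all genes removed. In the latter fit 32 of the 76 members were called lower, against 33.7% of all tested genes. With the trend of abundant genes removed, 56 were called lower, against 37.6%, and the medians were -0.36 and -0.25.

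Some members kept 1 direction throughout. Over 20 fits, which comprise the 6 scalings, the filters, DESeq2, limma-voom, halved counts, the replicate block and the fits without 1 library, 24 members were called lower in every fit and 5 higher in every fit. Those lower in all 20 were 17 genes of the large subunit and 7 of the small. Among them were Mrpl1 (log2 fold changes from -2.62 to -1.98), Mrps31 (-2.03 to -1.55), and Mrpl51 (-1.56 to -0.91). The size of the fall varied more in others, such as Mrpl22 (-1.49 to -0.43), Mrpl17 (-1.27 to -0.55), Mrps12 (-1.18 to -0.24), Mrpl12 (-0.81 to -0.40) and Mrps7 (-0.76 to -0.30). Those higher in all 20 were Mrpl50 (3.62 to 4.14), Mrps18b (1.33 to 2.14), Mrpl3 (0.48 to 1.09), Mrpl9 (0.42 to 0.79) and Mrps22 (0.30 to 0.84). The other 47 were not called in 1 direction in all of these fits. How many of all tested genes kept 1 direction in all 20 fits was not counted, so the 24 and 5 members have no background. Under TMM scaling, 85.5% of all tested genes were called.

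Mitochondrial ribosomal proteins with names of another form moved in both directions. Of 6 such genes, 5 fell and 1 rose (median log2 fold change -0.58), and with the length trend of all genes removed 3 fell and 3 rose. Among all tested genes, 38% fell and 47.5% rose under TMM scaling. Dap3, a GTP-binding protein of the small subunit, was at 156, 155, 151 and 156 CPM in the Trim27 libraries and 88.9, 92.8, 94.8 and 92.6 CPM in the GFP libraries, a rise of 0.74 (adjusted p = 1.7e-13). Gadd45gip1, a large subunit protein, averaged 96.4 ± 5.98 CPM in the Trim27 group and 213 ± 18.1 CPM in the GFP group (-1.14). Ict1, a peptidyl-tRNA hydrolase built into the large subunit, fell by 0.58 on the log2 scale, and Chchd1, a small subunit protein, also by 0.58, a direction that turned to 0.53 with the length trend of all genes removed.

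Genes for building the ribosome were called in both directions. Of 26 listed for assembly and ribosomal RNA modification, 25 were abundant enough to test, and 8 rose, 11 fell and 6 did not pass (median -0.14, but 0.16 under library size alone). That is 32% higher and 44% lower, against 47.5% and 38% of all tested genes. Malsu1, an assembly factor of the large subunit, averaged 60.9 ± 5.55 CPM in the Trim27 group and 139 ± 5.78 CPM in the GFP group (-1.18). Eral1, which binds the RNA of the small subunit during its assembly, averaged 66.2 ± 2.95 CPM in the Trim27 group and 131 ± 5.64 CPM in the GFP group (-0.98). Mterfd2, also known as Mterf4, the partner of the ribosomal RNA methyltransferase Nsun4, averaged 10.8 ± 0.999 CPM in the Trim27 group and 38.5 ± 3.20 CPM in the GFP group (-1.83). The opposite direction was seen in Mettl17, needed for the small subunit, at 13.5 ± 1.04 CPM in the Trim27 group and 0.542 ± 0.512 CPM in the GFP group (4.59, SD, n = 4 each). The GFP values of Mettl17 lie near the floor. Among all tested genes under 4 log2 CPM, 2494 of 5018 rose at least 2-fold.

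Translation factors of mitochondria had shares near those of all tested genes, with 7 of 16 (43.8%) higher, 6 (37.5%) lower and 3 not past the test (median 0.11, but -0.16 with the length trend of all genes removed). Mrrf, the ribosome recycling factor, averaged 38.6 ± 0.999 CPM in the Trim27 group and 0.995 ± 0.677 CPM in the GFP group (5.27), where its values lie near the floor. Tsfm, the exchange factor of elongation factor Tu, averaged 160.2 ± 7.56 CPM in the Trim27 group and 61.8 ± 5.23 CPM in the GFP group (1.38). Lower were Slirp, the partner of Lrpprc in stabilising mitochondrial messenger RNA, and Mtfmt, which formylates the initiator methionyl-tRNA. Slirp averaged 40.5 ± 4.04 CPM in the Trim27 group and 118 ± 6.89 CPM in the GFP group (-1.55), and Mtfmt 14.5 ± 0.858 CPM in the Trim27 group and 46.8 ± 3.48 CPM in the GFP group (-1.69).

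Of 37 genes of the mitochondrial genome in the table, 14 were abundant enough to test, and 2 rose, 7 fell and 5 did not pass (median -0.36, but 0.37 with the length trend of all genes removed). That is 14.3% higher and 50% lower, against 47.5% and 38% of all tested genes. mt-Rnr2, the ribosomal RNA of the large subunit, was at 137, 101, 102 and 113 CPM in the Trim27 libraries and 327, 332, 294 and 330.1 CPM in the GFP libraries (-1.50). mt-Rnr1, that of the small subunit, averaged 26.6 ± 3.31 CPM in the Trim27 group and 42.7 ± 4.26 CPM in the GFP group (-0.68, but 0.05 with that trend removed). Libraries were made from polyadenylated RNA, so counts of ribosomal RNA do not measure its amount. Among messenger RNAs of the respiratory chain, mt-Nd4 averaged 334 ± 23.3 CPM in the Trim27 group and 263 ± 12.9 CPM in the GFP group (0.35), while mt-Nd5 averaged 64.7 ± 6.06 CPM in the Trim27 group and 114 ± 7.23 CPM in the GFP group (-0.82). The 13 messenger RNAs together took 0.297 to 0.399% of counts in the Trim27 libraries and 0.274 to 0.314% in the GFP libraries, with overlap.

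Reads of some members may be shared with other genes. By a GRCm38 annotation, 24 members share exonic bases with another gene, 20 of them with a gene on the opposite strand, and the strand setting of the counting is not given in the sources used here. For 6 members, Mrpl13, Mrpl21, Mrpl24, Mrpl47, Mrpl48 and Mrps7, at least 100 bases are shared with a gene of at least 100 counts, so their values are uncertain. Some other genes had no count under the annotation's symbol. Members that share bases with them, among them Mrpl12 (200 bases), Mrpl43 (385), Mrps27 (417) and Mrps30 (601), could not be judged this way. Symbols of pseudogenes of members had few counts, with 304 for Mrpl23-ps1, 344 for Mrpl48-ps, 977 for Mrps36-ps1 and 54 for Mrps36-ps2 over the 8 libraries.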

How the data were processed

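The authors deposited raw read counts per gene symbol for 8 libraries, as whole numbers with no normalization. Per the labels' protocols, polyadenylated RNA was made into libraries with a transposase kit, and bcl2fastq, HISAT2, featureCounts and the build NCBIM37 are named in the submitters' processing notes. Their versions, the strand setting and the handling of multiply mapped reads were not given in the sources used here. Of counts from 1 to 10, 64.7 to 67.0% in the Trim27 libraries and 68.4 to 72.0% in the GFP libraries were even, so both reads of a pair may have been counted; counts were also halved as an alternative.

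Groups follow the labels. Genes were kept by filterByExpr (minimum count 10, total 15), scaled by TMM and tested two-sided with edgeR 4.0.16 (quasi-likelihood, robust) in R 4.3.3; adjusted p-values are Benjamini-Hochberg over all 11040 genes, threshold 0.05. CPM uses TMM library sizes. Alternatives used DESeq2 1.42.0, limma 3.58.1, other scalings and filters, a length trend (natural spline on log2 length, over all genes or genes of at least 6 log2 CPM), glmTreat, the replicate block and leaving out each library. Fits were tested on simulated data. Transcript lengths were matched by symbol for 32084 and by older symbol for 896 of 33435 genes to a GRCm38 annotation, and its coordinates were not mixed with NCBIM37.

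The members and the gene lists were chosen with earlier results of these data known. Members named one by one were the 6 largest rises and 6 largest falls, the 4 most abundant of each subunit, those that did not pass, and 9 fixed by role; Mrps25 and Mrpl32 were added after their values were seen. From each list up to 4 with the smallest p are named.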

Additional observations from a re-analysis of the deposited data

Results flagged for a closer look

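Single libraries stood apart from their group in 15 of the 160 groups of 4 values examined (each of the 76 members and 4 summed quantities in each group), by Dixon's test. Chance gives about 1 such library in 20 groups.

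Trim27 replicate 1 was that library for 7 genes. It was high for Mrpl18 (195.2 CPM, against 162.4 to 165.7 CPM in the other Trim27 libraries), Mrpl20 (627.4 CPM, against 544.8 to 557.5 CPM), Mrpl41 (91.4 CPM, against 78.7 to 80.4 CPM) and Mrps36 (63.3 CPM, against 46.0 to 48.5 CPM). It was low for Mrpl57 (366.5 CPM, against 417.9 to 427.9 CPM), Mrps24 (133.6 CPM, against 146.8 to 147.4 CPM) and Mrps34 (28.4 CPM, against 37.9 to 39.7 CPM). The fall of Mrpl20 was -1.31 on the log2 scale without this library and -1.23 with it.

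In the other Trim27 libraries, replicate 2 was low for Mrpl47 (19.6 CPM) and high for Mrps33 (24.02 CPM), and replicate 4 was low for Mrpl54 (217.7 CPM). In the GFP group, replicate 1 was low for Mrpl30 (448.4 CPM), replicate 2 was high for Mrpl23 (68.7 CPM) and Mrps28 (254.5 CPM), replicate 3 was high for Mrpl42 (76.5 CPM) and replicate 4 was high for Mrpl48 (55.2 CPM).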

How the results depend on the processing

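Counts below are members higher and lower. Scaling by library size only gave 20 higher (9 large, 11 small subunit), and removal of the length trend of all genes 31 higher (18 large, 13 small) and 32 lower (20 large, 12 small). The latter fit had 50.4% of all tested genes higher and 33.7% lower, and the former 56.9% higher and 28.1% lower. Requiring a fold change above 1.5 (glmTreat) gave 3 higher (2 large, 1 small) and 29 lower (21 large, 8 small). Of all tested genes, 35.3% were then higher and 22.2% (2452) lower. A minimum of 10 CPM in 4 libraries gave 3453 of all genes higher, since fewer were tested. For the other changes here the cause was not tested.

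The median log2 fold change of all, large and small subunit members was -0.54, -0.59 and -0.33 with DESeq2 size factors, -0.52, -0.57 and -0.31 with upper-quartile factors, -0.26, -0.31 and -0.058 with scaling by library size only, -0.0067, -0.029 and 0.12 with the length trend of all genes removed, -0.31, -0.36 and -0.25 with that of genes of at least 6 log2 CPM removed, -0.54, -0.58 and -0.33 with no filter, and -0.53, -0.58 and -0.32 by DESeq2's Wald test. It was -0.55 over all members with the 10 CPM minimum. Without 1 library it lay between -0.61 and -0.56 over all members, -0.67 and -0.60 in the large subunit and -0.40 and -0.36 in the small.

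Among named members, scaling by library size only turned Mrpl10 to 0.025, Mrpl19 to 0.23, Mrpl23 to 0.19, Mrpl39 to 0.29, Mrpl45 to 0.013, Mrps30 to 0.25 and Mrps5 to 0.26. The length trend of all genes turned Mrpl10 to 0.16, Mrpl23 to 0.89, Mrpl28 to 0.12, Mrpl52 to 0.013, Mrps18a to 0.32 and Mrps18c to 0.19, and that of abundant genes Mrpl23 to 0.33. Of 660 values of named members under alternatives, 610 kept their side of the threshold, and kept their direction where called. For values called in neither fit, the direction was not compared.

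Same-numbered libraries did not deviate together (correlations from -0.05 to 0.01 over tested genes, and not every library was closest to its own number), so the numbers do not pair them. The replicate block gave 8 members higher and 56 lower, with Mrps9, Mrps15 and Mrps35 no longer called. Of all tested genes, 46.5% were higher and 36.5% lower in that fit. Depth limits Mrpl50 most, with 6 to 16 counts in the GFP libraries.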
